A study of Mus musculus with 6 samples.

Results

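The genes described here encode ribosome biogenesis and rRNA processing proteins, 45 members chosen by name. All probe sets whose platform annotation gives exactly 1 gene symbol, that of a member, were taken, which gave 89 probe sets for the 45 genes out of 45101 probe sets on the array and 18193 genes with a single-symbol probe set. After a filter on dim probe sets 78 of the 89 were tested, and each of the 45 genes kept at least 1. The samples were livers of male BALB/c mice aged 10 weeks, 3 from controls and 3 from mice isolated for 30 days, with 1 Affymetrix expression array per sample. Mice were 4 weeks old at the start and were kept 5 to a cage for the 10 days of acclimatisation. The isolated mice were then caged singly with less bedding, and a foam box around all cages prevented social contact. The controls are given as 5 mice per cage. Both groups had the same strain, sex, diet and light cycle, and no transgene or drug is named in the labels. The labels number the samples but do not say that each came from a separate mouse, so p-values measure the spread between these samples, which may be partly technical.

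Ribosomes are built in the nucleolus. RNA polymerase I transcribes a long precursor rRNA, small nucleolar ribonucleoproteins (snoRNPs) guide its chemical modification and cleavage, and large assemblies of processing factors fold and trim it into the small and large subunits. In liver this machinery is best known for its increase with feeding and during regeneration, when hepatocytes make more protein.

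One member passed the test, Rrp9, a protein of the U3 snoRNP that is needed for the early cuts that release the small subunit rRNA. It was higher in isolated livers, but its control signals all lay below the floor of the filter, which it passed only through the isolated arrays, and without the filter it was not called (limma adjusted p 0.137). The other 44 members did not pass, and no member was called lower. Their changes were small and mostly above 0, with a median log2 change over the 45 members of 0.26, against 0.05 over all 10986 genes tested. Two-sided limma tests were used, with a call at a Benjamini-Hochberg adjusted p under 0.05, and a gene was represented by its tested probe set with the highest mean. The 1 call makes 2.22% of the members, and 1.75% of all tested genes were called (0.901% higher and 0.847% lower in isolated mice). One call among the members is thus near the background share. A log2 change here is always isolated minus control, on the log2(signal + 2) scale, which understates the change of dim probe sets.

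Counted without a threshold on size, 36 of the 45 members (80%) had a log2 change above 0, as did 58.4% of all genes tested. An unadjusted limma p under 0.05 with a higher signal in isolated mice was found for 9 members, or 20%, and for 7.94% of all genes. In the opposite direction it was found for 0 members and 4.4% of all genes. Every isolated array read above every control array for 10 members, or 22.2%, against 10.8% of all genes. No member had every isolated array below every control, against 5.17%. Without Rrp9, which passed the filter only through the isolated arrays, 35 of 44 members (79.5%) were above 0. Of these 44, 8 (18.2%) had an unadjusted limma p under 0.05 and a higher signal in isolated mice. Every isolated array was above every control for 9 (20.5%). These shares describe the list and no test of the list was made, since its genes are not independent of each other. The members were also chosen with earlier results of these data known, so the shares may reflect that choice. The counts moved when single arrays were left out. Members with an unadjusted limma p under 0.05 and a higher signal then ran from 3 (without isolated replicate 3) to 11 (without control replicate 2). Members above 0 ran from 30 of 44 tested (without isolated replicate 3) to 38 of 45 (without control replicate 3).

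**Figure D1:**
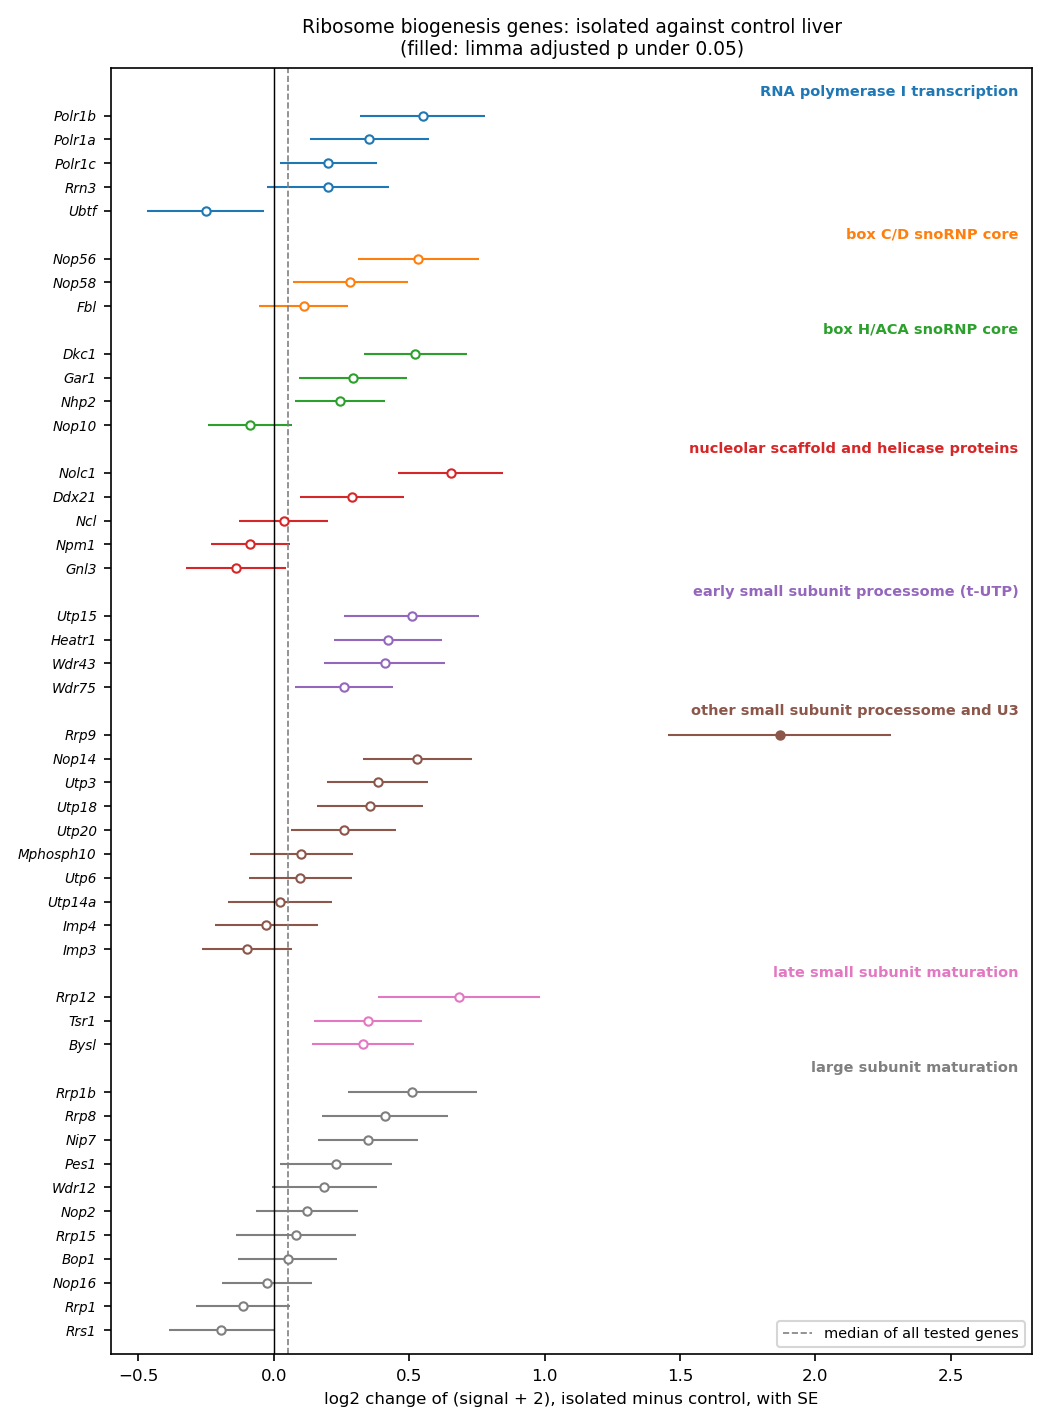
Log2 change (isolated minus control) of (signal + 2) for the 45 members, by role, each by its brightest tested probe set, with the limma SE as the bar; the dashed line is the median of all tested genes. Rrp9, the filled point at 1.87, stands apart from the other 44 members, which lie between -0.25 and 0.69.

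The shift of the list was not even over the arrays. For each member the log2 value on an array was set against the mean of its 3 controls, and the median over the 45 members was -0.22, 0.04 and 0.10 on control replicates 1, 2 and 3. On isolated replicates 1, 2 and 3 it was 0.114, 0.149 and 0.495. The isolated medians thus lay above all control medians, with isolated replicates 1 and 2 close to control replicate 3. Isolated replicate 3 gave the highest value of the 6 arrays for 32 members, and control replicate 1 the lowest for 26.

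Part of that unevenness was shared by the whole array. Over all tested genes the same median was -0.07, -0.06 and 0.14 on the controls and 0.05, -0.07 and 0.20 on isolated replicates 1, 2 and 3. After each array was centred on its own median, the members stood at -0.14, 0.09 and -0.03 on the controls and at 0.08, 0.23 and 0.31 on the isolated arrays, so that isolated replicate 1 then lay just below control replicate 2. The median log2 change of the members was 0.12 without isolated replicate 3, where that of all genes was -0.02, and 0.155 without control replicate 1, where that of all genes was 0.01.

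**Figure D2:**
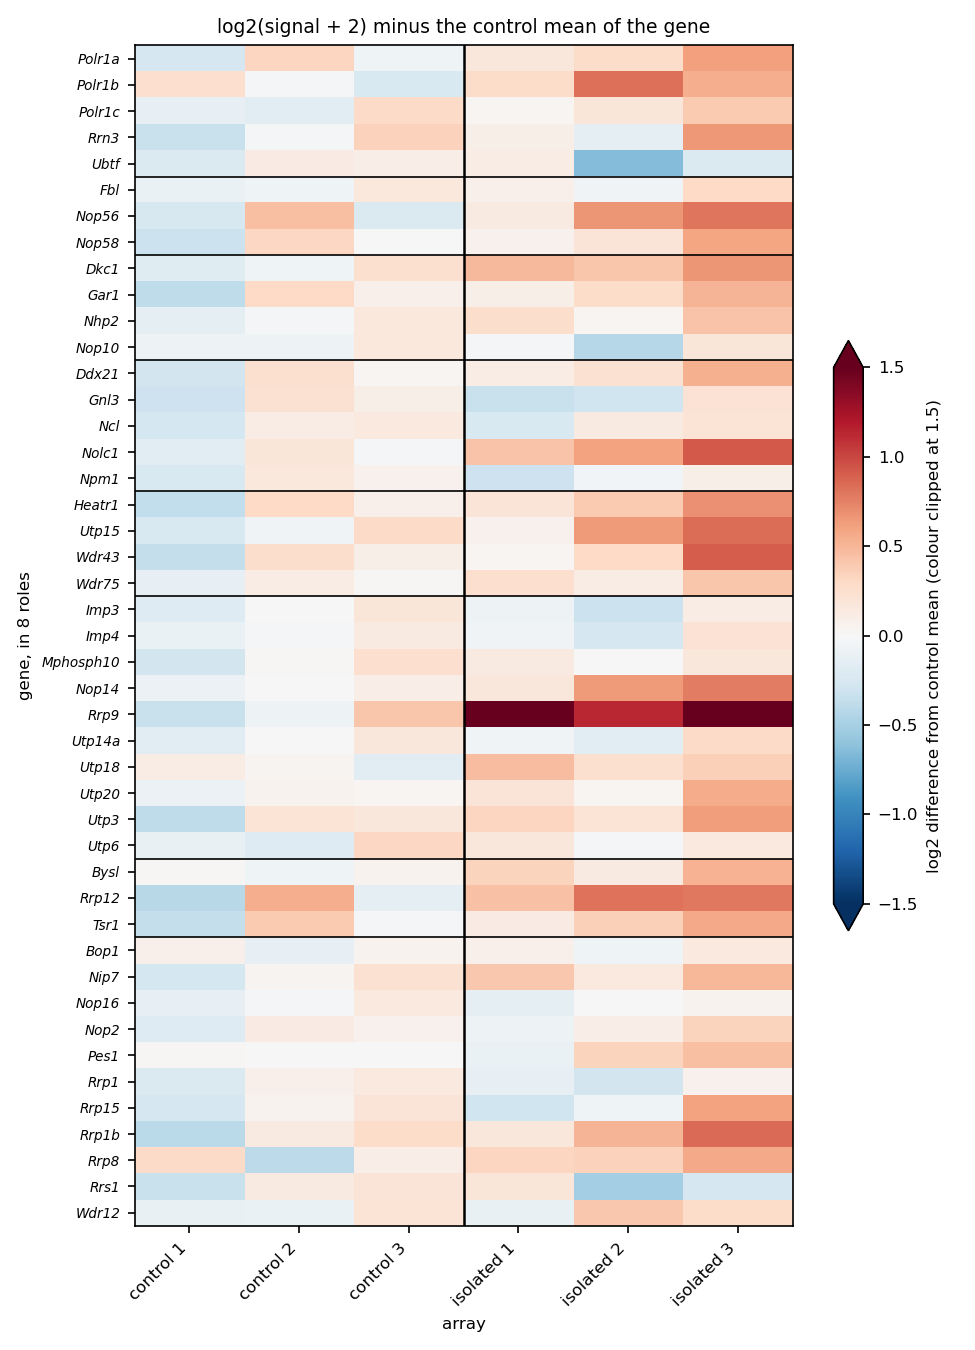
Log2(signal + 2) of the 45 members (rows, in 8 roles separated by lines) on the 6 arrays (columns), as the difference from the control mean of each gene. The column of isolated replicate 3 is mostly red and that of control replicate 1 mostly blue, and Rrp9 is red on all 3 isolated arrays.

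Rrp9 has 1 probe set on the array. Its signal was 7.41, 9.23 and 13.9 on control replicates 1, 2 and 3 and 46.3, 24 and 63 on the isolated ones. The groups did not overlap, and the lowest isolated array read above the highest control. The means were 10.2 ± 3.34 and 44.4 ± 19.6 (SD, n = 3 per group), and the log2 change was 1.87 ± 0.41 (SE), or 3.65-fold. The limma adjusted p was 0.0196. All 3 control signals lie below 18, the signal to which the filter's floor on the mean corresponds, so the probe set was tested only because the isolated arrays were high. Detection calls were not used here, the control signals may be background, and the fold is approximate. Without the intensity trend in the variance model the limma adjusted p was 0.101, without the filter it was 0.137, and without isolated replicate 1 or 3 the probe set fell below the filter and was not tested.

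Promoter sequence is shown for 3 members so that the windows searched for motifs can be seen. Rrp9 is the called member, Nolc1 has the next smallest p, and Heatr1 is the one member with an unadjusted p under 0.05 and a motif match. Each sequence is the 250 bases before the start of the gene in RefSeq on GRCm38.p6, plus strand, written 5′ to 3′. No genome build is named for the arrays. Rrp9 is at chr9:106477059-106477308, Nolc1 at chr19:46075597-46075846 and Heatr1 at chr13:12395125-12395374. Capitals mark the ETS-type match.
Rrp9: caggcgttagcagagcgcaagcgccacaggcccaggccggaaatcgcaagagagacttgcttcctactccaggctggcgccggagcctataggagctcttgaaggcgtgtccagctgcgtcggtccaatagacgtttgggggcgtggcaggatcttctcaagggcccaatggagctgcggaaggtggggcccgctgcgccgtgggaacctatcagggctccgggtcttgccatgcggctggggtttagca
Nolc1: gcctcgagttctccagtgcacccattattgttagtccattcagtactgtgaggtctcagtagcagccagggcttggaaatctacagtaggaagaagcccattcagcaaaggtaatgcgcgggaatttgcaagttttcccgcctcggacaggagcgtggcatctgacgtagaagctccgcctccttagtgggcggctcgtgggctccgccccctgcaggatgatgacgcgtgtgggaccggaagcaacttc
Heatr1: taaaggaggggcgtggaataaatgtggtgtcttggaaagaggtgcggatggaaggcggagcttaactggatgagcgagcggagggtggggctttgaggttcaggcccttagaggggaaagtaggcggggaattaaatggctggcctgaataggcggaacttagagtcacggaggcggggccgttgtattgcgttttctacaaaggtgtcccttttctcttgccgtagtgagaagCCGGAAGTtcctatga

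Both motifs were searched on both strands of these 250-base windows. The canonical E-box CACGTG, the sequence bound by MYC and its partners, was in 4 of the 48 windows that 39 of the members have in the table, or 8.33%, and in 6.02% of all 32851 windows. The ETS-type motif CCGGAAGT was in 6 of the 48 member windows, or 12.5%, and in 2.88% of all windows. Windows of cytosolic ribosomal protein genes held the ETS-type motif in 11.8%, and those of other biogenesis and exosome genes in 19.1%. In Heatr1 the match begins 16 bases before the start, while the Rrp9 and Nolc1 windows hold no exact match to either motif. Close variants of the motifs were not searched for. The printed windows do hold letters a single base off the ETS-type motif, ccggaagc in Nolc1 and ccggaaat in Rrp9. How often such variants occur in other windows was not counted. The 6 windows with the ETS-type motif belong to Polr1c, Nhp2, Gar1, Heatr1, Utp3 and Nip7. In that order the genes had log2 changes of 0.20, 0.24, 0.29, 0.42, 0.38 and 0.35. Of all 45 members 36 were above 0. The median GC content was 57.2% in the member windows and 52.4% in all windows. The 4 members with an E-box had a median log2 change of 0.16, with a range of -0.028 to 0.356. The 35 with a window but no E-box, Rrp9 among them, had a median of 0.29, with a range of -0.252 to 1.869. The difference between these sets was not tested. A match describes these letters only and is not evidence of binding.

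Among the 5 members of RNA polymerase I transcription none was called, and the median log2 change was 0.20. Polr1b, the second largest subunit of the enzyme, read 60.1, 48.8 and 42.5 on the controls and 60.9, 89.9 and 74.1 on the isolated arrays. Its groups did not overlap, though isolated replicate 1 and control replicate 1 were nearly level. The log2 change was 0.55 ± 0.23 (SE), with a limma adjusted p of 0.34. Polr1c, a subunit shared with RNA polymerase III, gave 260, 252 and 346 for the controls and 290, 321 and 372 after isolation, with overlap. Polr1a, the largest subunit, and Rrn3, which brings the polymerase to the rDNA promoter, had log2 changes of 0.35 and 0.20. The other tested probe set of Polr1a went the other way, at -0.22. Ubtf, the factor that binds rDNA along its length, was the 1 of these 5 with a change below 0, at -0.25 ± 0.22 (SE), and had an unadjusted limma p of 0.259.

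The proteins of the snoRNPs, the particles that carry guide RNAs to the precursor, fall into box C/D particles, which methylate ribose, and box H/ACA particles, which make pseudouridine. None of the 7 was called. In the box C/D core, Nop56 read 105, 172 and 107 on the controls and 137, 199 and 220 on the isolated arrays, so control replicate 2 lay among the isolated values. Its log2 change was 0.53 ± 0.22 (SE), its limma adjusted p was 0.34, and a second probe set gave 0.50. Fbl, the methyltransferase of these particles, read 398, 408 and 473 against 449, 410 and 526, with overlap. Its log2 change was 0.11, and its other probe set gave 0.28. Nop58 had a log2 change of 0.28.

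In the box H/ACA core, Dkc1, the pseudouridine synthase, read 107, 116 and 145 on the controls and 172, 163 and 194 on the isolated arrays. The groups did not overlap. Its log2 change was 0.52 ± 0.19 (SE), its limma adjusted p was 0.233, and its other tested probe sets gave 0.26 and 0.18. Nop10, a small protein that braces Dkc1, gave 1605, 1607 and 1893 for the controls and 1670, 1263 and 1931 after isolation. Isolated replicate 2 was the lowest of the 6 arrays and isolated replicate 3 the highest, and the log2 change was -0.09, or 0.08 without isolated replicate 2. Gar1 and Nhp2, the remaining core proteins, had log2 changes of 0.29 and 0.24.

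The 5 nucleolar scaffold and helicase proteins differed among themselves, with a median log2 change of 0.04. Nolc1, which shuttles between nucleolus and Cajal bodies with the snoRNPs, had the smallest p after Rrp9. Its signal was 105, 133 and 115 on the controls and 158, 180 and 224 on the isolated arrays, without overlap. The log2 change was 0.65 ± 0.195 (SE), its limma adjusted p was 0.113, and its 2 other probe sets gave 0.26 and 0.36. With the replicate number as a block or with a robust trend the adjusted p was 0.0622 and 0.0787, so no setting tried made it a call.

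Npm1, the abundant nucleolar chaperone, gave 1569, 2051 and 1925 for the controls and 1483, 1792 and 1946 after isolation, with overlap. The log2 change was -0.09 ± 0.15 (SE), with 0.02 without isolated replicate 1. Ncl, nucleolin, has 5 tested probe sets with log2 changes from -0.21 to 0.40, and the brightest gave 0.04. The helicase Ddx21 had a log2 change of 0.29, and the GTPase gene Gnl3, which encodes nucleostemin, one of -0.14.

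The small subunit processome is the assembly that forms around the U3 snoRNA on the new transcript. With each member counted in 1 role, 14 of the members were placed in it. The 4 members placed in its early UTP complex all had log2 changes above 0, with a median of 0.42 and none called. Heatr1, the largest of them, read 150, 240 and 206 on the controls and 223, 257 and 314 on the isolated arrays. Control replicate 2 lay above isolated replicate 1, and the log2 change was 0.42 ± 0.20 (SE), and 0.24 without control replicate 1. The limma adjusted p was 0.429. Wdr43 and Wdr75 had log2 changes of 0.41 and 0.26, and for Wdr75 every isolated array lay above every control.

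Utp15 gave different answers from its 2 tested probe sets. The brighter read 39.7, 45.1 and 57.4 on the controls and 48.9, 73.7 and 85.2 on the isolated arrays, with a log2 change of 0.51 ± 0.249 (SE). The other read 62.4, 62.1 and 62.4 against 47, 42.2 and 63.5, with a log2 change of -0.30 ± 0.23 (SE). Neither passed, with limma adjusted p of 0.449 and 0.712, and which of them was the brighter changed when isolated replicate 2 or 3 was left out, where the gene's log2 change became -0.18 and -0.47.

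Of the other 10 members placed in the processome, Rrp9 was the 1 call and the median log2 change was 0.18. Nop14, a scaffold of the assembly, read 88.5, 93.8 and 102 on the controls and 107, 149 and 163 on the isolated arrays, without overlap. Its log2 change was 0.53 ± 0.203 (SE), with a limma adjusted p of 0.271. Utp3 and Utp18 likewise did not overlap between groups, with log2 changes of 0.38 and 0.36. Imp3, which pairs U3 with the precursor, gave 522, 601 and 677 for the controls and 564, 475 and 644 after isolation. Its log2 change was -0.10, and 0.015 without isolated replicate 2. Its partners Imp4 and Mphosph10 had log2 changes of -0.03 and 0.10, and Utp20, Utp6 and Utp14a of 0.26, 0.10 and 0.02. Other tested probe sets had the opposite sign for Mphosph10 (-0.25), Imp4 (0.01) and Utp14a (-0.03).

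The 3 factors of late small subunit maturation had log2 changes above 0, and none was called. Rrp12, which helps the subunits leave the nucleus, read 20.1, 40.9 and 24.7 on the controls and 38, 49.8 and 48.8 on the isolated arrays. Control replicate 2 lay above isolated replicate 1. The log2 change was 0.69 ± 0.30 (SE), and the limma adjusted p was 0.37. Tsr1, a GTPase-like factor of the late precursor, read 196, 330 and 246 against 274, 322 and 372, with overlap, and Bysl, with no overlap, had a log2 change of 0.33.

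Large subunit factors numbered 11, with 8 above 0, none called and a median log2 change of 0.12. Rrp1b read 44.7, 66 and 72.9 on the controls and 67.9, 86.2 and 110 on the isolated arrays, and its groups overlapped. Its log2 change was 0.51 ± 0.24 (SE), its limma adjusted p was 0.418, and its other probe sets gave 0.36 and 0.10. Rrs1, which brings the small 5S particle into the subunit, read 358, 498 and 517 against 511, 316 and 381. Isolated replicate 2 was the lowest array for it, and the log2 change was -0.19 ± 0.19 (SE), with a limma adjusted p of 0.807.

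The PeBoW complex, needed to process the large subunit rRNA, is made of Pes1, Bop1 and Wdr12, which had log2 changes of 0.23, 0.05 and 0.19. Rrp8, a methyltransferase of the large subunit rRNA, did not overlap between groups and had a log2 change of 0.41. Nop2, another such methyltransferase, had 0.12, and its partner Nip7 had 0.35. Rrp15, Nop16 and Rrp1 had log2 changes of 0.08, -0.03 and -0.11.

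Where a member had more than 1 tested probe set, which held for 26 genes, all its probe sets had changes of 1 sign in 19. Both signs were found in Polr1a, Nop10, Ncl, Utp15, Utp14a, Mphosph10 and Imp4. Over the 78 tested probe sets 60 had a log2 change above 0, and 14 had every isolated array above every control, against 0 the other way. Over all tested probe sets 55.4% had a change above 0, 9.62% were all above and 5.79% all below, and 1.63% were called. The 33 tested probe sets that do not represent a gene included 24 above 0 and no call.

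The 18S rRNA itself is read by 3 control probe sets, placed toward its 5′ end, its middle and its 3′ end. Arrays of this kind are primed on poly(A) tails, which mature 18S rRNA lacks, so these signals are not a measure of ribosome content. All 3 were lower on every isolated array than on any control. The 5′ probe set read 135, 181 and 153 on the controls and 113, 107 and 118 on the isolated arrays, a 1.37-fold difference. The middle probe set read 279, 303 and 348 against 231, 167 and 208, a 1.54-fold difference. The 3′ probe set read 359, 369 and 501 against 334, 276 and 322, a 1.3-fold difference.

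In an exact two-sided permutation test over the arrays each of the 3 gave p = 0.1, the smallest that 3 against 3 samples can give, so none can pass at 0.05. The 3 probe sets read 1 molecule on the same arrays and are not independent. Among the 35 control probe sets above the filter's floor, the 18S probe sets were the 3 that lay below every control on the isolated arrays, and 1, the 3′ probe set of the transferrin receptor, lay above. The group means of the 3′ beta-actin probe set were 6044 ± 149 and 5961 ± 552 (SD, n = 3), with exact permutation p = 1, and the bioB spike, added in a fixed amount, read 268 ± 17.1 and 281 ± 18.3, with exact permutation p = 0.2.

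The ratio of the 3′ to the 5′ 18S probe set was 2.66 ± 0.613 in controls and 2.76 ± 0.184 in isolated mice, with exact permutation p = 0.8. The ratio of the 3′ to the middle 18S probe set was 1.28, 1.22 and 1.44 on the controls and 1.45, 1.65 and 1.55 on the isolated arrays, without overlap, with exact permutation p = 0.1, the smallest possible. For beta-actin the 3′ to 5′ ratio was 2.21 ± 0.0951 and 2.16 ± 0.182, with exact permutation p = 0.8, and for Gapdh it was 0.705 ± 0.0138 and 0.691 ± 0.00354, with exact permutation p = 0.2.

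**Figure D3:**
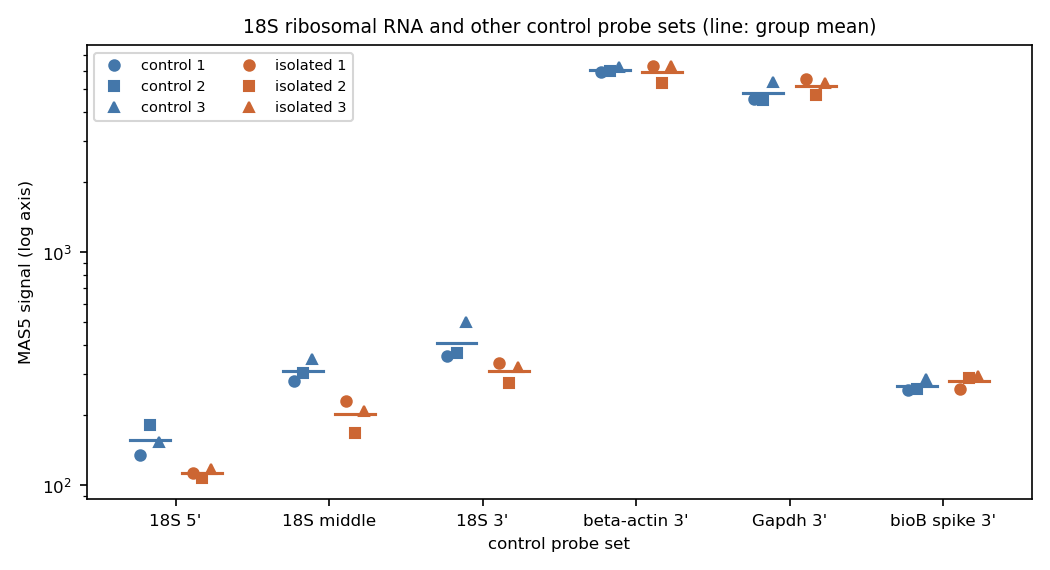
MAS5 signal (log axis) of the 3 18S rRNA probe sets and of 3 other control probe sets on each array, with the group mean as a line. For 18S all isolated points (orange) lie below all control points (blue), while beta-actin, Gapdh and the bioB spike overlap.

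Further genes of the pathway were read from lists that do not hold the 45 members. Of 38 other small subunit factors none was called, 31 were above 0 and the median log2 change was 0.21. The smallest p were those of Bms1, a GTPase of the processome, and Nol11, with log2 changes of 0.43 and 0.48 and limma adjusted p of 0.25 and 0.273. Of 39 other large subunit factors 1 rose and 0 fell, with 31 above 0 and a median of 0.17. The call was Wdr74, which read 169, 176 and 200 on the controls and 248, 326 and 334 on the isolated arrays, a 1.65-fold rise (limma adjusted p 0.0469). Its call ended without control replicate 1, 2 or 3 (adjusted p 0.168, 0.15 and 0.0703), without isolated replicate 2 or 3 (0.135 and 0.13), without the filter (0.0751), without the trend (0.22), with array weights (0.053) and without isolated replicates 2 and 3 together (0.774).

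Of 12 other subunits and factors of RNA polymerase I none was called, and 10 were above 0 with a median of 0.20. Znrd1, a small subunit of the polymerase, read 184, 193 and 159 against 254, 291 and 278, without overlap. Its change on the log2 scale was 0.61 (limma adjusted p 0.089), and that of Polr1e was 0.65 (limma adjusted p 0.252). The RNA exosome, the nuclease that trims precursor ends, had 13 tested genes, all 13 above 0 with a median of 0.30 and none called. Mtrex, its nuclear helicase, read 98.3, 95.8 and 110 against 150, 177 and 165, without overlap. The log2 change of Mtrex was 0.68 (limma adjusted p 0.0728), and that of Exosc3 was 0.63 (limma adjusted p 0.174).

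The cytosolic ribosomal proteins, which these factors assemble, gave other values. Of 79 genes 44 have a single-symbol probe set and 43 were tested, with none called, 13 above 0 and 30 below. The share above 0 was 30.2%, against 58.4% of all genes tested. Their median log2 change was -0.02. It was 0.02 with array weights, 0.03 without control replicate 3 and 0.04 without isolated replicate 2, so its sign is not stable. The median of all genes was higher in each of these 4 fits, at 0.05, 0.08, 0.12 and 0.12 in the same order. Rps27 had the smallest p and read 64.3, 168 and 64.5 on the controls and 63, 50.4 and 55.5 on the isolated arrays. Its groups did not overlap, but control replicate 2 stood far above the others, and its log2 change was -0.65 (limma adjusted p 0.39). For Rps6 it was -0.26 (limma adjusted p 0.786). The difference between the 2 lists was not tested.

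**Figure D4:**
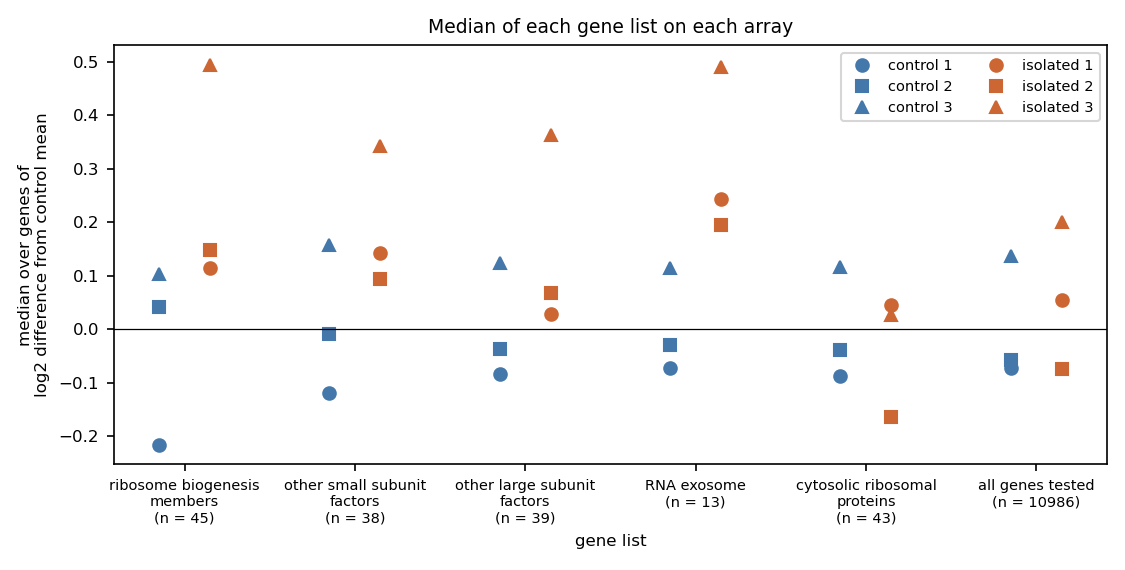
Median over the genes of a list of the log2 difference from each gene's control mean, on each array (colour: group; symbol: replicate). For the members the isolated arrays stand at 0.114 to 0.495 and the controls at -0.22 to 0.10, and for the RNA exosome the groups do not overlap either. They overlap for the other small and large subunit factors, for cytosolic ribosomal proteins and for all genes.

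In the MYC and mTOR list, which holds regulators of ribosome production, none of 18 tested genes was called and 7 were above 0, with a median of -0.03. Ddit4, an inhibitor of mTOR, had a log2 change of 0.96 (limma adjusted p 0.0701), and Mlx one of 0.57 (0.145). The p53 list, a pathway that responds to failed ribosome assembly, had no call among 8 tested genes and a median of 0.13. Trp53inp1 had a log2 change of -0.75 (limma adjusted p 0.075), and Ccng1 one of 0.62 (0.0947).

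In whole liver, fewer cells of a type and less RNA per cell cannot be told apart. Hepatocyte markers were present, with 9 of 9 measured genes above the filter and a summed signal of 77832 to 83246 in controls and 72928 to 81452 in isolated mice. The summed signal of 8 measured adipocyte markers was 279 to 416 in controls and 328, 529 and 585 on isolated replicates 1, 2 and 3; of these Adipoq, Retn, Lep and Cidea lay below the filter, and 1, Plin4, was called lower (limma adjusted p 0.00695). The 4 tested ones had a median log2 change of -0.233, with 1 above 0. That one was Fabp4, which read 117, 202 and 157 on the controls and 203, 300 and 404 on the isolated arrays. Adipoq read 4.38, 8.48 and 15.6 against 3.78, 59.5 and 54.8, and Retn 2.39, 2.78 and 3.88 against 2.65, 20 and 42.2. Lep and Cidea were not high on isolated replicates 2 and 3. Markers of proliferating cells, 7 measured with Mki67 and Birc5 below the filter, summed to 694 to 745 and 749 to 834, and those of cholangiocytes, 5 measured with Krt7, Sox9 and Cftr below the filter, to 44.8 to 88.9 and 90.5 to 100. No gene of either list was called, and their part in the member values was not tested. For markers of Kupffer cells, lymphocytes, endothelial cells, stellate cells, pancreatic acinar cells and erythroid cells none was called and the summed signals of the groups overlapped. Only 1 of 9 measured lymphocyte markers, 1 of 3 erythroid and 2 of 7 acinar markers lay above the filter. Few markers of these 3 types could thus be called. For Kupffer, endothelial and stellate cells 8 of 9, 7 of 7 and 6 of 7 were tested. Isolated replicates 2 and 3 read highest for Adipoq, Retn and Fabp4, and isolated replicate 3 also for 32 of the members. With both left out, 1 isolated array remained. The median of the tested members was then 0.112 and that of all genes 0.052. The excess of the members was 0.06, against 0.206 with all arrays, and Rrp9 fell below the filter. Leaving out these arrays cannot separate fat tissue from other differences between arrays, and a part of fat tissue in the member values was not tested.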

How the data were processed

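The deposited intensity values are linear signals per probe set that the authors made with MAS5, per the submitters' processing notes. For the scaling target, detection calls and build, the sources used here say nothing. By the labels' protocols, cRNA was made from 2 µg of total RNA. All 6 columns were used as deposited, with median signals of 18.4 to 22.1 per array. The number of arrays limits the precision.

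The 64 control probe sets were set apart, 2 was added before taking log2, and the upper 50% of the other probe sets by mean log2 value (22519, mean at least 4.32) entered 1 fit in limma 3.58.1 (R 4.3.3) with 2 groups and an intensity trend. Benjamini-Hochberg adjustment covered all 22519, and members were read out of that fit. The prior variance carried 16.1 degrees of freedom and the arrays 4. Control probe sets were compared by exact permutation tests. Of 344 list genes 52 had no single-symbol probe set. The platform annotation named 34945 probe sets with 1 symbol, 932 with several and 9224, controls included, with none; 34741 matched RefSeq by gene identifier.

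Named members were those called, those with an unadjusted p under 0.05, and in each of 8 roles the brightest and the most changed, plus members whose probe sets had changes of opposite sign with either at such a p. From each other pathway list the called genes, or the 2 with the smallest p, were named. The members and lists were chosen with earlier results of these data known. The procedure was tested on simulated data. Alternatives covered the pseudocount, filter, normalization, variance model, array weights, replicate block, probe set per gene and omission of each array. A fit lacking both isolated replicates 2 and 3 was chosen after seeing the data. Promoters came from a RefSeq table. Figures used matplotlib 3.10.9.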

Additional observations from a re-analysis of the deposited data

How the results depend on the processing

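The count of members called higher was 1, and became 0 without a filter, with the upper 40% of probe sets, without the intensity trend and with isolated replicates 2 and 3 left out together; with single arrays left out it ran from 0 to 1. With the upper 40%, without isolated replicate 1 or 3, and without 2 and 3 together, the probe set of Rrp9 was below the filter. The Rrp9 adjusted p in limma was 0.0196 and ran from 0.00692 to 0.137 over the settings that tested it, weaker without the filter (log2 change 1.869, 0.137) and without the trend (1.869, 0.101). No member was called lower under any setting. The median log2 change of the tested members stayed above 0, from 0.112 to 0.318; its excess over that of all genes was 0.206, and 0.06 with isolated replicates 2 and 3 left out together. In the 6 pathway lists other than the ribosomal proteins, genes called higher numbered 1, and 0 without a filter or without the trend, 4 with the upper 40%, 3 with a robust trend, 2 with array weights, 6 with the replicate block, and 0 to 2 with single arrays left out. Genes called lower there numbered 0, and 1 with a pseudocount of 16, with the upper 40%, with median centring, with array weights and with the replicate block, 2 with isolated replicates 2 and 3 left out together, and 0 to 2 with single arrays left out. Cytosolic ribosomal proteins gave 0 calls throughout. Signs turned, for changes that were not called, in Nop10 (-0.224 to 0.082 with single arrays left out), Npm1 (-0.2 to 0.024), Utp15 (-0.466 to 0.734, and -0.391 with isolated replicates 2 and 3 left out together), Imp3 (-0.204 to 0.015) and Rrs1 (0.177 with those 2 left out), and in the 18S ratio (-0.101 to 0.235). The 18S probe sets stayed lower in the other settings run on them. The labels share replicate numbers, but deviations of same-numbered arrays correlated at only 0.008, 0.044 and 0.005 and not every array correlated best with its own number; the replicate block gave 513 called probe sets against 367, 1 called member, an Rrp9 adjusted p of 0.0292 in limma, and p = 0.25 in the exact paired test of the 18S probe sets, the smallest that 3 pairs allow. The cause of these differences was not tested unless stated.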
